A study of Rattus norvegicus with 3 samples.

Results

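The genes described here encode 9 non-collagenous proteins of bone matrix: osteopontin (Spp1), bone sialoprotein (Ibsp), dentin matrix protein 1 (Dmp1), matrix extracellular phosphoglycoprotein (Mepe), osteocalcin (Bglap), matrix Gla protein (Mgp), osteonectin (Sparc), tenascin C (Tnc) and periostin (Postn). They were taken by the gene name that the array files give to non-control probes, and are 9 of 26115 such names. Together they have 10 probes and 28 spots per array. The question was how their expression differed with polyphosphate, a linear chain of orthophosphate residues, in ROS17/2.8 cells, an established rat osteosarcoma clone that keeps features of osteoblasts. Total RNA of cells without polyphosphate (the control), with 0.01 mg/ml (the low dose) and with 1 mg/ml (the high dose) was hybridised to 3 one-colour Agilent arrays on 1 slide. The treated cells had 24 h of polyphosphate per the labels, which give no time for the control. All cells, the control included, were confluent and were kept in a medium for mineralization with ascorbate phosphate and 1 mM β-glycerophosphate, a phosphate donor.

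Each group holds 1 array, so no difference has a replicate check, an SD between cultures or a p-value, and position on the slide and group cannot be told apart. The ± values are spot errors: the standard error of a log2 ratio computed from the scatter of repeat spots within an array. They leave out labelling, hybridisation, culture and every biological difference. In bulk RNA, fewer cells making a transcript and less transcript per cell cannot be told apart. The small number of arrays limits precision throughout.

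Bone matrix is mineralized collagen with a small share of other secreted proteins. The phosphoglycoproteins osteopontin, bone sialoprotein, Dmp1 and Mepe belong to a family of integrin-binding proteins whose genes lie side by side. Bone sialoprotein is known to favour mineral nucleation, while phosphorylated osteopontin and acidic fragments of Mepe hinder crystal growth. Osteocalcin and matrix Gla protein carry vitamin K-dependent γ-carboxyglutamate residues that bind calcium, and matrix Gla protein is a known inhibitor of soft tissue calcification. Osteonectin binds collagen and calcium, and tenascin C and periostin are matricellular proteins that modulate cell adhesion.

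The measurements rest on 60-base probes in the sense of the transcript. Shown 5′ to 3′ are the probes of the 4 genes that differed by more than 2 spot errors between the high dose and the control after scaling to the 75th percentile, and those of the 2 genes that were not well above background on any array. Each of these 6 probes has at least 1 reading frame without a stop triplet over its length. Capitals mark the TAG stop triplet that closes another frame of the Dmp1 probe.
Spp1: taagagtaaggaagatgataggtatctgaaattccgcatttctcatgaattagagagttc
Mgp: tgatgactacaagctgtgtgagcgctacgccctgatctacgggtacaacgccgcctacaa
Sparc: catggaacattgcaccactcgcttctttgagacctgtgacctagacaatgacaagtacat
Tnc: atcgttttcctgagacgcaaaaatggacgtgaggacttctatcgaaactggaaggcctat
Dmp1: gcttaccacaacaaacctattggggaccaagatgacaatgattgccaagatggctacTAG
Postn: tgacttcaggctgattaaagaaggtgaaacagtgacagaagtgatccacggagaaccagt

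The array files place these probes on the rat build rn4. The Spp1 probe lies at chr14:6422382-6422441, the Mgp probe at chr4:173910827-173910886 and the Sparc probe at chr10:40811473-40811532, all on the minus strand. The Dmp1 probe lies at chr14:6638270-6638329 on the minus strand. The Postn probe, on the plus strand, covers chr2:143560792-143561828, a stretch of 1037 bases and so longer than the probe itself. The files give the Tnc probe as unmapped. The Ibsp probe lies at chr14:6549186-6549245 and the Bglap probe at chr2:180482313-180482372. Mepe has a pair of probes that both end at base 6529356 of chromosome 14 and share 57 bases of their length. Within that overlap they differ by 1 substitution, G7A, counted from the 5′ end of the probe designed on the RefSeq transcript, so the Mepe probes measure nearly the same stretch and are not independent.

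Over the series, 55.9% to 57.2% of 30367 probes were well above background on an array, the scanner's own flag. All 6 osteoblast markers checked (Runx2, Sp7, Alpl, Col1a1, Ibsp and Bglap) were well above background on all 3 arrays. Of 6 osteocyte markers, Dmp1, Fgf23 and Phex were not well above background on any array, and Sost was not with 0.01 mg/ml. Of 6 chondrocyte markers, Acan, Col10a1, Col2a1 and Matn1 were not well above background on any array. The other lists had 4 of 5 leukocyte markers (without Ptprc), 4 of 5 muscle markers (without Myod1), 2 of 5 adipocyte markers (without Adipoq, Plin1 and Pparg) and 2 of 4 endothelial markers (without Kdr and Tek) well above background on each array. The signals of the osteoblast markers, each as a multiple of the array's 75th percentile, summed to 14.05 in the control, 14.07 with 0.01 mg/ml and 12.78 with 1 mg/ml, and those of the osteocyte markers to 2.27, 2.16 and 2.18 in that order; these lists hold Ibsp, Bglap, Dmp1 and Mepe themselves. In the same order the sums were 0.392, 0.455 and 0.368 for chondrocyte, 6.88, 7.27 and 7.65 for adipocyte, 0.276, 0.263 and 0.254 for leukocyte, 2.24, 2.14 and 2.10 for muscle and 0.225, 0.213 and 0.259 for endothelial markers. Their part in the results was not tested.

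Of the 9 genes, 7 were measured, that is, had a probe well above background on all 3 arrays, and none of the spots of the 9 genes carried an outlier flag. With each array scaled to its 75th percentile of signal, Spp1 and Mgp were higher at the high dose than in the control and Sparc and Tnc were lower, each by more than 2 spot errors, while Ibsp, Mepe and Bglap differed by less. The Spp1 difference stayed beyond 2 spot errors under every alternative setting tried, though some of these settings could not change its value. Sparc and Tnc came within 2 spot errors of 0 when arrays were centred on spike-ins, and Mgp, Sparc and Tnc did so when the background was corrected by normexp, a model of signal plus noise. Normexp was run on the unprocessed spot signal, without the software's removal of spatial trends, so this setting changes more than the background. With normexp Spp1 stood at 0.26 ± 0.07, Mgp at 0.23 ± 0.12, Sparc at -0.18 ± 0.15 and Tnc at -0.21 ± 0.13. For Sparc the value without normexp was -0.17 ± 0.05, so the spot error widened while the ratio hardly moved. The ratios of the 7 genes lay between 0.816-fold and 1.25-fold, and none reached 2-fold. Over all 14503 measured genes, 0.117% were at least 2-fold apart, 10.7% lay above 0 by more than 2 spot errors and 12.8% below, or 2.61% and 2.96% with normexp. The median log2 ratio was 0.03 over the 7 genes and -0.01 over all measured genes. The spot error falls with the number of spots and with the signal, so genes pass this bound unequally easily. Where spots are said below to overlap or not between arrays, the share over all measured probes was not computed. With 2 spots per array such separation is easily reached.

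**Figure D1:**
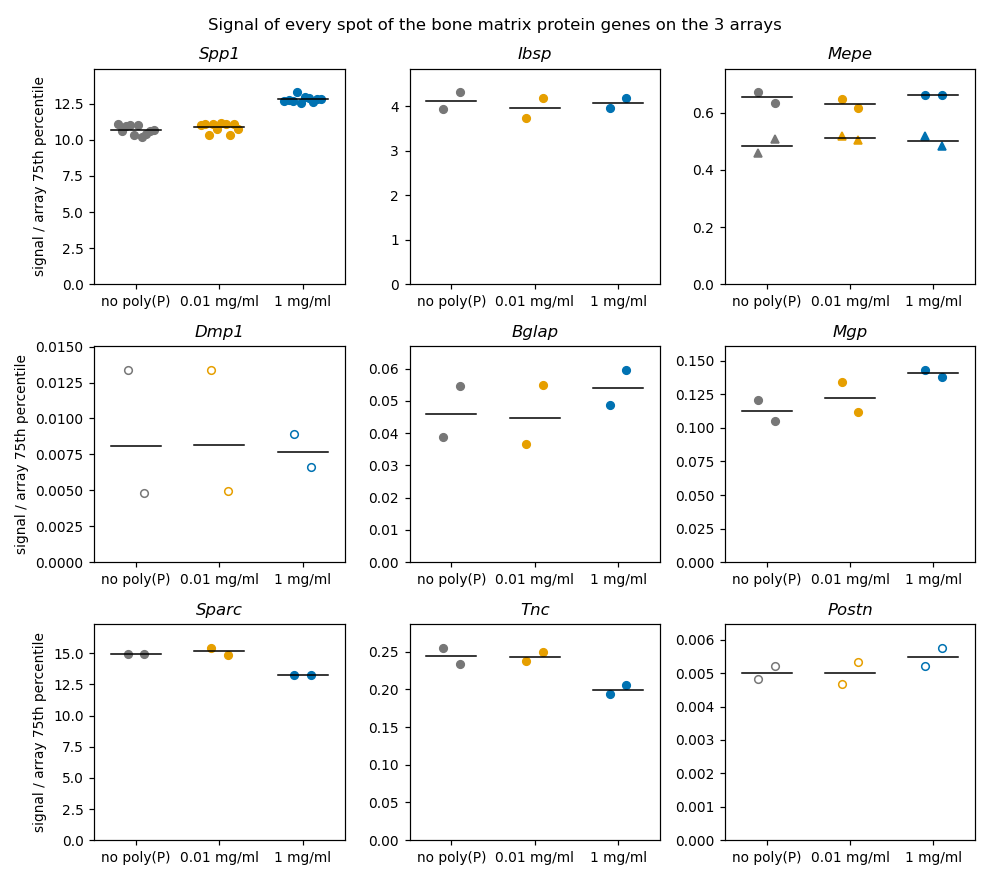
Signal of every spot of the 9 genes, divided by the 75th percentile of its array (vertical axis, linear from 0, 1 panel per gene), on the arrays without polyphosphate, with 0.01 mg/ml and with 1 mg/ml. Points are spots (open where the probe was not well above background, triangles for the other Mepe probe) and lines are means over the spots of a probe on the log scale; the 10 Spp1 spots at 1 mg/ml all lie above those of the other arrays, and the 2 Sparc and 2 Tnc spots at 1 mg/ml all lie below.

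Among the phosphoglycoproteins, Spp1 has 10 spots per array. Its processed signal, background-subtracted by the scanner software, ranged from 9419 to 10281 in the control (median 9857), from 9938 to 10745 with 0.01 mg/ml (median 10662) and from 11733 to 12492 with 1 mg/ml (median 11963). The spots of the high dose overlapped with neither other array, also after scaling, and those of the low dose and the control overlapped. The log2 ratio after scaling was 0.26 ± 0.02 for high against control, a fold of 1.20, and 7.25% of measured genes had a higher one. All 10 spots were above 0 when each was set against the spot at the same position on the control array, with ratios from 0.19 to 0.35. For low against control the log2 ratio was 0.02 ± 0.02, with 7 of 10 spots above 0. Spp1 thus differed by more than its spot error at the high dose, and by about its spot error at the low dose.

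Ibsp, which encodes a protein used as a marker of mineralizing osteoblasts, read 3643 and 4014 in the control, 3605 and 4041 with 0.01 mg/ml and 3706 and 3916 with 1 mg/ml. The spots of the 3 arrays overlapped. Its log2 ratio was -0.02 ± 0.05 for high against control and -0.06 ± 0.06 for low against control, with bounds at 2 spot errors of -0.13 to 0.09 and -0.18 to 0.06. For Spp1, of the same gene family, the bounds for high against control were 0.21 to 0.31. These did not overlap with those of Ibsp when arrays were scaled as above, but this separation was lost with normexp. There Spp1 stood at 0.26 ± 0.07 and Ibsp at -0.01 ± 0.15 for high against control, so that their bounds at 2 spot errors overlapped.

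Mepe, a gene of osteoblasts and osteocytes whose protein is an inhibitor of mineralization, had 4 spots from its pair of probes. The probe designed on the RefSeq transcript read 623 and 587 in the control, 623 and 593 with 0.01 mg/ml and 618 and 620 with 1 mg/ml. The other probe read 426 and 470 in the control, 498 and 487 with 0.01 mg/ml and 484 and 454 with 1 mg/ml. The log2 ratio over both was 0.03 ± 0.05 for high against control and 0.01 ± 0.05 for low against control. For the low dose the probes took opposite signs, -0.05 and 0.08.

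Dmp1, a gene of late osteoblasts and osteocytes, was not well above background on any array. Its spots read 12.4 and 4.48 in the control, 12.9 and 4.78 with 0.01 mg/ml and 8.36 and 6.20 with 1 mg/ml. The lowest signal flagged well above background was 19.7 in the control, 21.0 with 0.01 mg/ml and 22.4 with 1 mg/ml. Dmp1 therefore has only an upper bound on each array and no fold.

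The probes of Spp1, Mepe, Ibsp and Dmp1 lie within 216 kb of chromosome 14. Going from the Spp1 to the Dmp1 side, Spp1, Mepe and Ibsp were well above background and Dmp1 was not. Probes within 100 kb on either side include 3 of Dspp, the dentin sialophosphoprotein gene of the same family, of which 1 was well above background, at 82.6 in the control, 90.2 with 0.01 mg/ml and 80.9 with 1 mg/ml. Its log2 ratio was -0.05 ± 0.18 for high against control. On the other side lies Pkd2, for polycystin 2, a cation channel, which was chosen for mention after its values were seen. It read 186 and 213 in the control, 205 and 216 with 0.01 mg/ml and 271 and 323 with 1 mg/ml, with a log2 ratio of 0.56 ± 0.10 for high against control and 0.02 ± 0.10 for low against control. Spots of Pkd2 at the high dose lay above those of both other arrays, as did those of Spp1, and a link between these genes was not tested. The remaining probe on that side, with 1 spot, stood at 0.48 ± 0.35 for high against control, within 2 spot errors.

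Of the Gla protein genes, Mgp had the highest ratio among the 7 genes for high against control. It read 112 and 97.1 in the control, 129.2 and 107.5 with 0.01 mg/ml and 134 and 129 with 1 mg/ml. After scaling, the spots of the high dose lay above those of the control and of the low dose, and those of the low dose and the control overlapped. The log2 ratio was 0.32 ± 0.13 for high against control, a fold of 1.25, with both spots above 0 at 0.25 and 0.40, and 4.83% of measured genes had a higher one. For low against control it was 0.12 ± 0.14.

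Bglap, a late osteoblast gene, was well above background on all 3 arrays but gave the lowest signals of the 7 measured genes. It read 35.9 and 50.6 in the control, 35.2 and 52.9 with 0.01 mg/ml and 45.6 and 55.9 with 1 mg/ml, so that the arrays overlapped. The log2 ratio was 0.23 ± 0.23 for high against control, with bounds at 2 spot errors of -0.24 to 0.69, and -0.04 ± 0.24 for low against control. A difference of the size seen for Spp1 or Mgp was not detectable in Bglap.

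Sparc and Tnc were lower at the high dose when arrays were scaled to the 75th percentile, and within 2 spot errors of the control when centred on spike-ins or corrected by normexp. Sparc read 13838 and 13807 in the control, 14908 and 14351 with 0.01 mg/ml and 12385 and 12411 with 1 mg/ml. Both spots of the high dose lay below those of the other arrays, and the low dose and the control overlapped after scaling. The log2 ratio was -0.17 ± 0.05 for high against control, a fold of 0.887, with 15.8% of measured genes lower. For low against control it was 0.02 ± 0.05.

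Tnc read 237 and 217 in the control, 229 and 241 with 0.01 mg/ml and 181 and 193 with 1 mg/ml. Both spots of the high dose again lay below those of the other arrays. The log2 ratio was -0.29 ± 0.11 for high against control, a fold of 0.816, with spots at -0.40 and -0.18 and 6.36% of measured genes lower. For low against control it was -0.01 ± 0.10. Postn, also a matricellular gene, was not well above background on any array, with spots of 4.46 and 4.82 in the control, 4.52 and 5.13 with 0.01 mg/ml and 4.88 and 5.40 with 1 mg/ml. After scaling, its lowest spot at the high dose, 0.005212, barely exceeded the highest spot of the control, 0.005206. With signals not well above background, this gap is not read as a difference, and Postn has no fold.

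**Figure D2:**
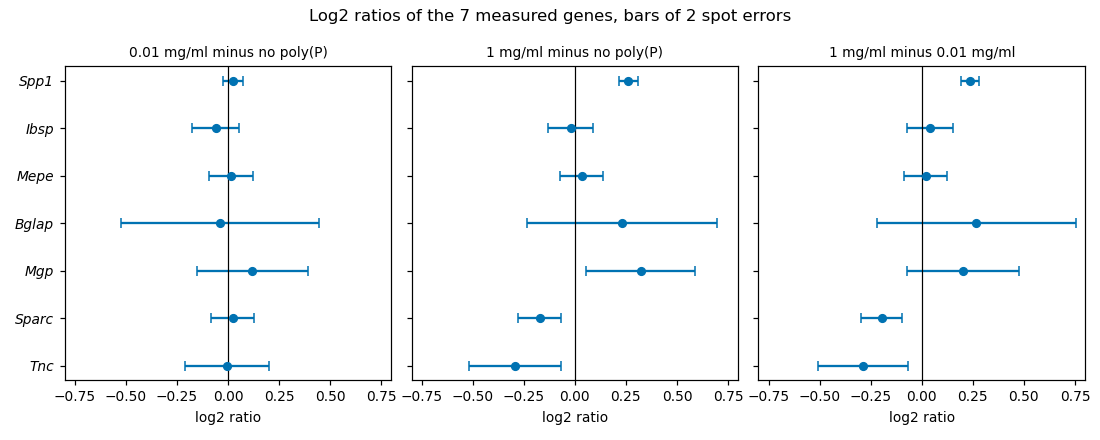
Log2 ratios (horizontal axis) of the 7 measured genes for low dose minus control, high dose minus control and high minus low dose, after scaling to the 75th percentile of each array. Bars span 2 spot errors on either side; for low dose minus control every bar crosses 0, and for high dose minus control those of Spp1, Mgp, Sparc and Tnc do not.

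At the low dose, with arrays scaled to the 75th percentile, none of the 7 genes differed from the control by more than 2 spot errors, where 4.16% of 14629 measured genes lay above 0 by as much, 4.4% below, and 0.116% were at least 2-fold apart. The 7 ratios lay between -0.06 for Ibsp and 0.12 for Mgp on the log2 scale, with a median of 0.01 against 0.00 over all measured genes. On spike-in centring Spp1, Mepe, Sparc and Mgp were above 0 by more than 2 spot errors, as were 44.1% of all measured genes, with 0.479% below. With the median of repeat spots in place of their mean, Spp1 was so as well, at 0.06 ± 0.02. Both comparisons with the control share the control array, so their values stand side by side and do not bear each other out.

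The direct comparison of the doses leaves out the control array, but it shares the high-dose array with the comparison of high dose and control. For the measured matrix protein genes its log2 ratio is the high-dose ratio against the control minus the low-dose ratio. It is therefore no independent check, and a fault of the high-dose array would enter both. Set against the low dose, the high dose had Spp1 higher and Sparc and Tnc lower by more than 2 spot errors. Among 14488 measured genes, 9.76% lay above 0 by as much, 10.8% below, and 0.0759% were at least 2-fold apart. Spp1 had a log2 ratio of 0.24 ± 0.02, with all 10 spots above 0, between 0.20 and 0.30. Sparc stood at -0.20 ± 0.05, with spots at -0.17 and -0.23, and Tnc at -0.29 ± 0.11, with spots at -0.30 and -0.28. Mgp stood at 0.20 ± 0.14, Bglap at 0.27 ± 0.24, Ibsp at 0.04 ± 0.06 and Mepe at 0.02 ± 0.05, all within 2 spot errors. With normexp Spp1 stood at 0.23 ± 0.07, while Sparc at -0.20 ± 0.15 and Tnc at -0.20 ± 0.13 came within 2 spot errors of 0. There 2.45% of measured genes lay above 0 by more than 2 spot errors and 1.26% below.

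**Figure D3:**
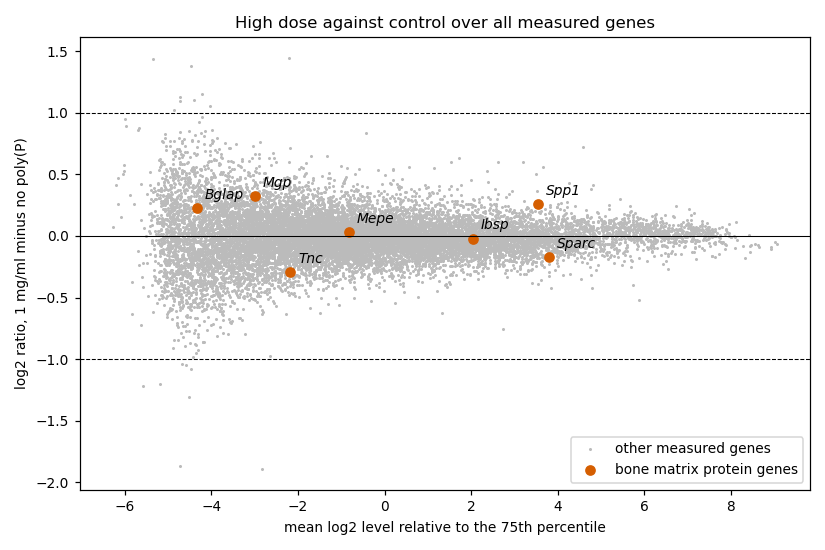
Log2 ratio of high dose minus control (vertical axis) against the mean log2 level relative to the 75th percentile (horizontal axis) for 14503 measured genes, in grey, with the 7 bone matrix protein genes in orange. Dashed lines mark a 2-fold difference; the 7 lie between -0.29 for Tnc and 0.32 for Mgp, within the cloud of grey points, and none reaches a dashed line.

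The comparisons with the control depend on how the arrays are put on one scale. The mean log2 ratio of 8 of 10 spike-in probes, those well above background throughout, against the control was -0.15 with 1 mg/ml and -0.16 with 0.01 mg/ml, and it was 0.00 between the doses. Spike-in RNA is added in known amount, and centring the arrays on it shifts every gene up by those amounts against the control. For high against control Spp1 then stood at 0.42, Mgp at 0.48, Mepe at 0.19, Ibsp at 0.13, Sparc at -0.02 and Tnc at -0.14. In that setting 4 of the 7 genes (Spp1, Mgp, Mepe and Ibsp) exceeded 0 by over 2 spot errors and none was below 0 by as much, where 40.9% of all measured genes were above and 1.8% below. Sparc and Tnc were thus lower than the control relative to the other genes of the array, and within 2 spot errors of 0 relative to the spike-ins. Against the low dose the ratios of Spp1, Sparc and Tnc were 0.23, -0.20 and -0.29 on that scale, close to those above.

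**Figure D4:**
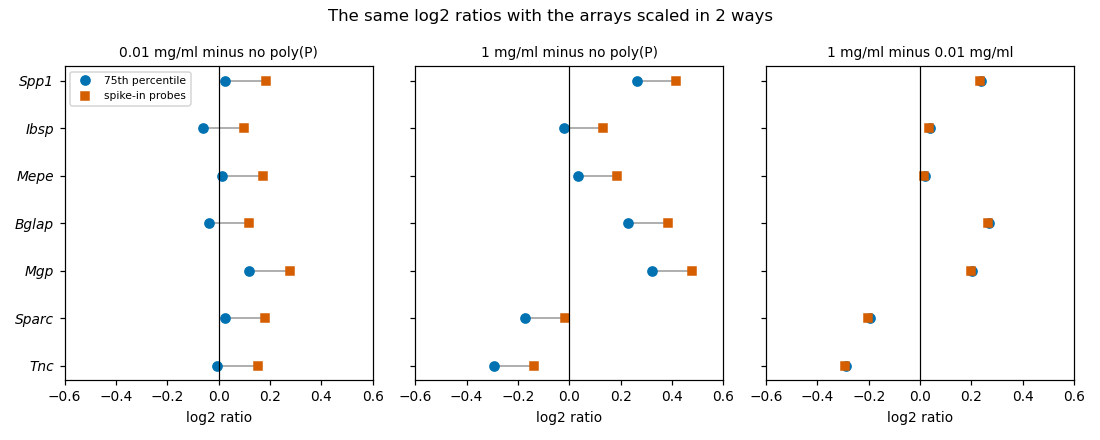
Log2 ratios (horizontal axis) of the 7 measured genes with each array scaled to its 75th percentile (circles) or centred on 8 spike-in probes (squares), in the same 3 comparisons. Every gene moves up by 0.15 or 0.16 against the control, which brings Sparc at the high dose to -0.02, and by 0.00 between the doses.

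Genes whose products act on or with these proteins were taken from 4 lists, whose counts stand against the 10.7% above and 12.8% below over all measured genes, or 40.9% and 1.8% on spike-in centring. Of 16 genes for enzymes that modify or cleave them, 11 were measured for high against control, 1 of them above 0 by more than 2 spot errors and 3 below, with a median of 0.00. Fam20c, the kinase that phosphorylates secreted matrix proteins, was the lowest at -0.18 ± 0.07, and Tll1, for a protease related to Bmp1, the highest at 0.16 ± 0.13. The genes of the vitamin K cycle and γ-carboxylation stood at 0.03 ± 0.06 for Ggcx, 0.01 ± 0.05 for Vkorc1 and -0.16 ± 0.12 for Vkorc1l1, and were named after their values were seen because Bglap and Mgp proteins need them. Phex, whose protein cleaves acidic fragments of Mepe, was not well above background. On spike-in centring, 7 of the 11 were above 0 by as much and none below.

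Of 14 receptor genes 8 were measured, 3 of them above 0 by more than 2 spot errors and 2 below, with a median of -0.07. On spike-in centring 3 were above by as much and none below. Sdc4, for the heparan sulphate proteoglycan syndecan 4, was the highest at 0.32 ± 0.05, and Itga4, an integrin subunit gene, the lowest at -0.34 ± 0.22, within 2 spot errors. Cd44, for a hyaluronan receptor that also binds osteopontin, was named after its values were seen, with 0.17 ± 0.09 for high against control and 0.28 ± 0.09 for high against low.

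Of 24 genes of other non-collagenous matrix proteins 12 were measured, none above 0 by more than 2 spot errors and 2 below, with a median of -0.02. On spike-in centring 6 of the 12 were above and none below. Smoc2, of the Sparc family, was the lowest at -0.22 ± 0.06, and Lum, for the proteoglycan lumican, the highest at 0.20 ± 0.12. All 12 regulators of bone matrix genes were measured, 3 above 0 by more than 2 spot errors and 2 below, with a median of -0.10, and on spike-in centring 5 were above and 1 below. Msx2, a homeobox gene, was the lowest at -0.28 ± 0.05 and Cbfb, for the partner subunit of Runx2, the highest at 0.20 ± 0.08. On spike-in centring the medians of the 4 lists were 0.15, 0.09, 0.14 and 0.05 in the order given, against 0.15 over all measured genes.

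The pair of log2 ratios for high and low dose against control was also set against that of 8062 genes with a RefSeq symbol and a probe of at least 2 spots, all well above background on the 3 arrays. The genes nearest to Spp1 in Euclidean distance were Gsta1, Abraxas1 and Gtf2h1, and 102 genes lay within a distance of 0.05. Nearest to Sparc were Zdhhc16, Akt1 and Paf1, with 274 genes within 0.05, and nearest to Tnc were Farp2, Nxn and Grhl2, with 65. These distances rest on 3 arrays that share the control. Those of the named genes, from 0.002 to 0.010, were smaller than the spot errors of Spp1, Sparc and Tnc. For high against control these errors were 0.02, 0.05 and 0.11, so which genes came out nearest is not resolved.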

How the data were processed

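The authors deposited the scanner output of 3 arrays, with an intensity for each spot. Per the file headers, Agilent Feature Extraction 10.7.3.1 subtracted the background and removed spatial trends within each array, and nothing was normalized between arrays. The deposited files also hold the flags used here for control type, background, saturation and outliers (integer codes of another kind). The authors further deposited a table of ratio values. Divided into the processed signal, each of its columns gave a constant to within 0.000123%, and the column medians were 0.0737 in the control, 0.0731 with 0.01 mg/ml and 0.0734 with 1 mg/ml. The sources used here do not state how the constant was chosen.

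The processed signal was put on the log2 scale after division by the 75th percentile of its array (926 in the control, 964 at the low dose, 937 at the high dose) over 58717 non-control spots. Outlier spots were left out and log2 values of repeat spots averaged. A probe passed the background filter if 50% or more of its spots carried the flag, and a gene's log2 ratio is the mean over probes that passed on both arrays. The spot error pools the SD of repeat spots in 20 bins of level over probes with all spots well above background. Other genes were named through RefSeq accessions for 60.7% of probes, from a GRCr8 table used for names only. The calculation was run on simulated data with noise drawn from the same pooled spot SDs. This checks the arithmetic only, and does not test whether the spot error covers differences between arrays or cultures. Normexp used limma 3.58.1 and an offset of 50. It started from the mean signal of each spot and its median local background, not from the processed signal.

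The genes, lists and settings were chosen with earlier results of these data known. The genes named are the 9 members, the highest and lowest measured gene of each list for high against control, the 3 nearest genes of Spp1, Sparc and Tnc with a named RefSeq symbol, the cell type markers, and others named after their values were seen (Pkd2, Dspp, Phex, Cd44, Ggcx, Vkorc1 and Vkorc1l1).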

Additional observations from a re-analysis of the deposited data

How the results depend on the processing

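With 1 array per group no replicate could be left out, and no spread between samples sets a limit. Under 9 alternatives, 174 of 189 values of single genes moved by less than 1 spot error and the other 15 by more. No value beyond 2 spot errors changed sign. Much of this count was fixed in advance. Keeping outlier spots, requiring all spots well above background or lifting the filter could not change these values, as no spot of the 7 genes was flagged or dim. The median of repeat spots could move only Spp1, because the median of 2 spots is their mean. The deposited table differs by 1 constant per array and shifts all genes alike. Normexp took 5 values beyond 2 spot errors to within them (Mgp, Sparc and Tnc for high against control, Sparc and Tnc for high against low). Spike-in centring did so for 2 (Sparc and Tnc for high against control) and took 6 others beyond, and the median of repeat spots took 1 beyond (Spp1 for low against control). Centring on spike-ins gave medians over the genes of 0.19 for high against control and 0.17 for low against control, where the 75th percentile gave 0.03 and 0.01. Counts of genes at least 2-fold apart (17 at the high and 17 at the low dose against the control, and 11 between the doses) were 2, 3 and 1 in that order with normexp, and 838, 781 and 673 without a filter on dim probes. With all spots of a probe required well above background they were 10 for high against control and 7 for high against low. Spike-in centring split them into 18 higher and 5 lower for high against control (9 and 8 at the 75th percentile) and 16 and 2 for low against control (10 and 7). An error from spots at the same position, chosen after seeing the data, gave 1155 genes above and 1176 below 0 by more than 2 errors for low against control (609 and 644 before). For high against control it gave 2191 above (15.1%) and 2593 below (17.9%), where 1554 and 1863 stood before. For high against low it gave 2001 above and 2392 below (1414 and 1568 before). More of all measured genes thus passed, while the numbers of matrix protein genes beyond 2 errors stayed the same in each comparison. No paired analysis was possible because each group has 1 array. Dmp1 and Postn are limited by signals not well above background, and Bglap by its spot error of 0.23 for high against control.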
